A study of Danio rerio with 24 samples.

Results

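The data described here are the CpG methylation levels of 2 windows of 100 kb of the zebrafish genome, 1 on chromosome 18 around *ets1* and 1 on chromosome 6 around *gbx2*, in assembly danRer10. All CpGs inside the windows were taken, without regard to their level. Of the 23256360 CpGs covered in any of the 4 libraries, 4129 lay in the windows. Early NCCs covered 3946 of them, late NCCs 4055, melanophores 4029 and iridophores 4019. The study compared neural crest cells (NCCs) with the pigment cells they give rise to, and drew regulatory regions around transcription factor genes of iridophores, *ets1* and *gbx2* among them. The question for these windows is where iridophore methylation departs from that of melanophores, and whether the drawn regions or other positions carry the difference.

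Whole-genome bisulfite sequencing (WGBS) reads each cytosine of a CpG as methylated or unmethylated. Early NCCs (15 somites) and late NCCs (24 hpf) were GFP-positive sorted cells of the Tg(crestinA:EGFP) line, in which a *crestin* element drives EGFP. Melanophores and iridophores came from mlphaj120 larvae, a *melanophilin* mutant strain, at 4 to 5 dpf. They were enriched by density centrifugation and sorting. Thus iridophores and melanophores share strain and age, while cell type, strain and age cannot be told apart between NCCs and pigment cells. Each of the 4 libraries combined 2 biological replicates, so no value has a spread between replicates, and every test compared the reads of 2 libraries. A level of a sorted population is a share of reads. Cells with different methylation and an intermediate level in every cell cannot be told apart. The marker genes of these cell types could not be placed on danRer10 with the annotation at hand, so the cell type labels were not checked here.

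*ets1* encodes a transcription factor of the ETS family, which binds a GGA core, and is known for its roles in neural crest, endothelium and blood cells. *gbx2* encodes a homeobox transcription factor best known for its role at the boundary of midbrain and hindbrain. In vertebrate genomes most CpGs are methylated, while CpG-rich promoters usually are not. Active distal enhancers are typically short stretches of low methylation in otherwise methylated DNA. In the RefSeq annotation of a later zebrafish assembly, *ets1* lies between *smtla*, which encodes a somatolactin, and *fli1*, another ETS family gene. *gbx2* neighbors *agap1*, which encodes a GTPase-activating protein of Arf proteins.

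Over the genome, mean coverage of a covered CpG ran from 24.0 reads in early NCCs to 35.2 in melanophores. In the *ets1* window, the median depth was 24 reads for iridophores, 33 for melanophores, 28 for late NCCs and 21 for early NCCs. In the *gbx2* window, it was 21, 30, 27 and 17 reads in the same order. The iridophore library was thus shallower than the melanophore library in both windows.

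The *ets1* window had a lower mean level in pigment cells than in NCCs, and the lowest in iridophores. Over CpGs with at least 5 reads, the mean level was 73.4% in iridophores, against 76.2% in melanophores, 82.9% in late NCCs and 85.7% in early NCCs. The corresponding genome means were 80.5%, 80.9%, 83.7% and 85.1%. The share of CpGs below 20% was 15.0% in iridophores, 10.2% in melanophores and 6.76% in late NCCs, where the genome had 9.05%, 8.81% and 8.21%. In the *gbx2* window the mean was 74.7% in both NCC stages, 72.4% in melanophores and 72.7% in iridophores. Iridophore minus melanophore differences over CpGs measured in both libraries averaged -2.89 percentage points at *ets1* and 0.214 points at *gbx2*, and -0.448 points in the genome.

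The mean difference at *ets1* was carried by a minority of CpGs. The median difference between iridophores and melanophores was 0 points in both windows. With at least 10 reads in both libraries, 90 of 1519 CpGs at *ets1* (5.92%) were lower in iridophores by 30 points or more, and 22 (1.45%) were higher. At *gbx2*, 17 of 1537 CpGs (1.11%) were lower and 9 (0.586%) were higher by that amount. In the genome, 1.33% were lower and 1.26% higher. The *ets1* share of lower CpGs was above that of the genome, while the *gbx2* share was close to it. The windows do not reach equally far from the gene starts. That of *ets1* holds positions 46.1 kb from its start toward higher coordinates. A region that the study drew 44.1 kb from the start of *gbx2* on that side lies outside the *gbx2* window. All 26 of its CpGs were lower in iridophores, and they enter no window count here.

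To locate these differences, each window was divided into 200 tiles of 500 bp. A tile was tested where at least 3 of its CpGs had at least 5 reads in both libraries. It was called where the Benjamini-Hochberg adjusted p over all tiles of the genome was under 0.01 (two-sided Fisher's exact test on reads summed over CpGs) and the levels differed by at least 30 points. Between iridophores and melanophores, 5 of 149 tested tiles at *ets1* were called, all lower in iridophores (3.36%). At *gbx2*, 2 of 171 were called (1.17%), both lower in iridophores. In the genome, 1.08% of tiles were called in either direction, 0.614% lower and 0.464% higher in iridophores. The share at *gbx2* was close to the background in either direction and above that of lower calls, but it rests on 2 tiles. The count at *ets1* depends on where tiles begin, since tiles shifted by 250 bp gave 9 lower and 1 higher call there.

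Without the minimum difference, 19 *ets1* tiles passed the adjusted p with lower and 4 with higher iridophore levels, whereas the *gbx2* window held 8 of each. The genome background of such tiles was 3% lower and 3.09% higher.

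**Figure D1:**
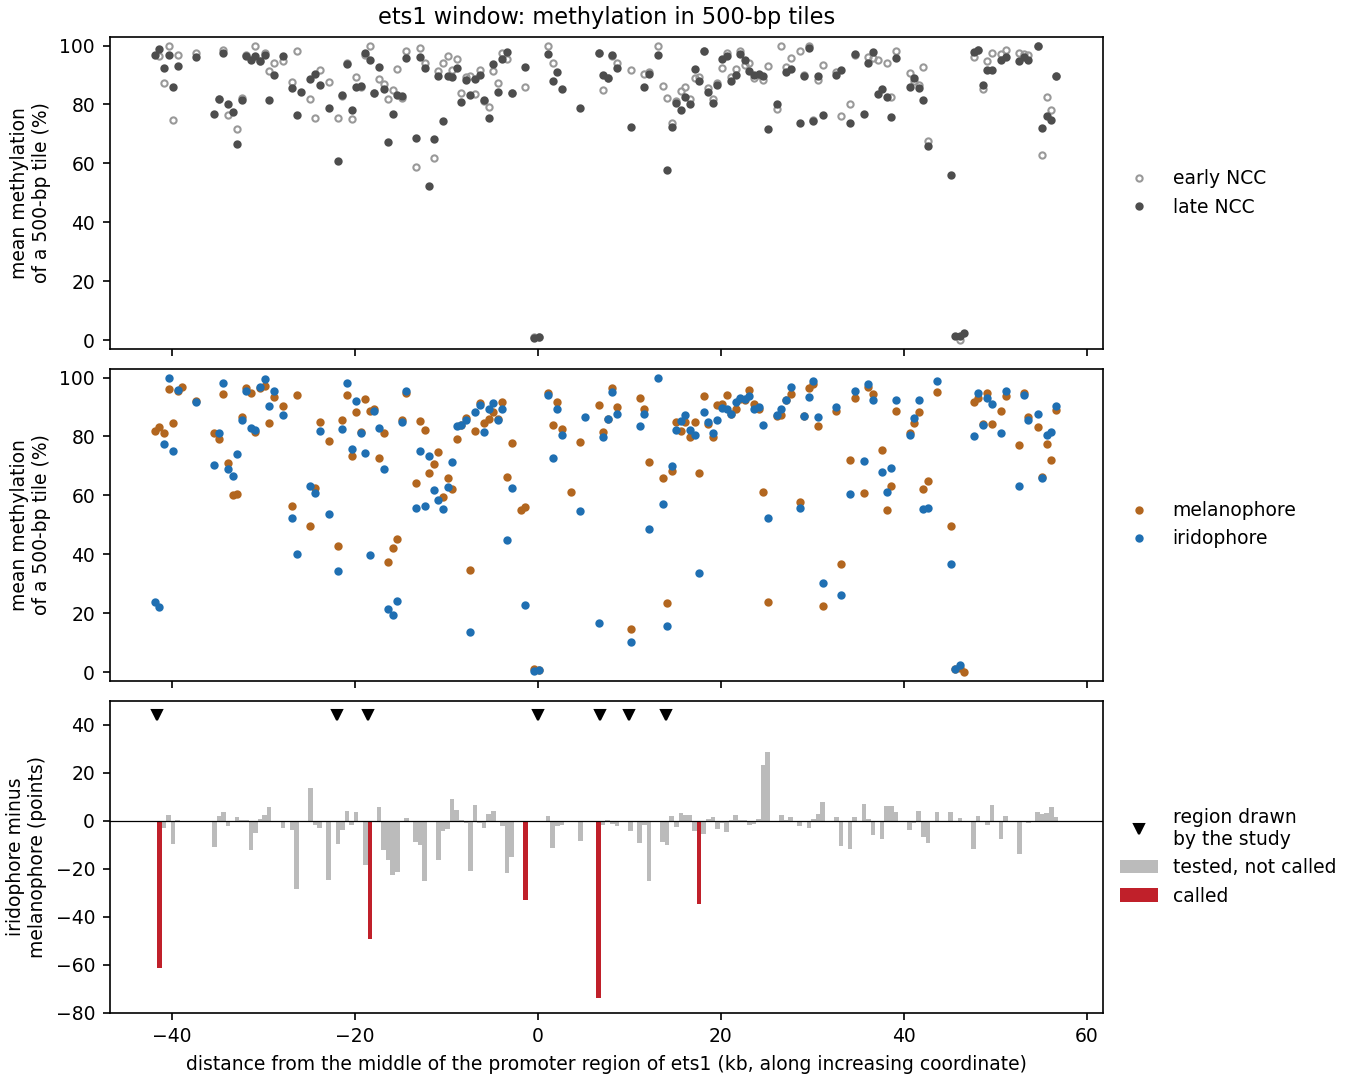
Mean methylation (%) of 500-bp tiles along the *ets1* window in NCCs (top) and pigment cells (middle), for tiles with at least 3 CpGs of at least 5 reads, and the iridophore minus melanophore difference in percentage points (bottom), against distance from the middle of the promoter region (kb). Red bars are the 5 called tiles, all below 0, gray bars are tested tiles that were not called, and triangles mark the 7 regions drawn by the study at *ets1*, of which 3 overlap a called tile.

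Positions below are given as distances from the middle of the drawn region at the start of each gene, negative toward lower coordinates. The largest difference at *ets1* was the tile at 48335501 to 48336000 (6.63 kb). It had 16.7% in iridophores, against 90.6% in melanophores, 97.5% in late NCCs and 97.5% in early NCCs. The difference between the pigment cells was -73.8 points on 8 CpGs, with 280 melanophore and 305 iridophore reads (Fisher's exact test, adjusted p = 1.09e-77). Iridophores alone were low in this tile, and the other 3 libraries were above 90%.

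The next tile, 48287501 to 48288000 (-41.4 kb), had 22.0% in iridophores, against 83.1% in melanophores, 98.7% in late NCCs and 96.4% in early NCCs. The difference was -61.1 points on 7 CpGs (Fisher's exact test, adjusted p = 2.08e-44). All 7 CpGs were lower in iridophores, and the highest of them, 31.6%, stayed below the lowest in melanophores, 75.0%. The tile at 48310501 to 48311000 (-18.4 kb) had 39.6% in iridophores, against 88.8% in melanophores, 95.1% in late NCCs and 100% in early NCCs (difference -49.2 points on 7 CpGs, Fisher's exact test, adjusted p = 4.51e-25). This tile was not uniform, since 4 of its 5 CpGs with at least 10 reads were lower in iridophores and 1 was at 100% in both pigment cells.

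The remaining called tiles at *ets1* overlapped no region drawn by the study. One, at 48346501 to 48347000 (17.6 kb), had 33.7% in iridophores, against 68.4% in melanophores, 88.1% in late NCCs and 89.2% in early NCCs (difference -34.7 points on 9 CpGs, NCC levels on 10, Fisher's exact test, adjusted p = 1.42e-18). The other lay beside the gene start, at 48327501 to 48328000 (-1.37 kb). It had 22.9% in iridophores, against 55.9% in melanophores, 92.6% in late NCCs and 86.0% in early NCCs (difference -33.0 points on 6 CpGs, Fisher's exact test, adjusted p = 4.06e-08). In these tiles melanophores were intermediate. When the reads of a tile were divided by its number of CpGs, as if each read spanned all of them, neither tile passed the test (Fisher's exact test, adjusted p = 0.391 and 1), and the tile at -18.4 kb did not either (adjusted p = 0.0373, same exact test).

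At *gbx2*, the tile at 15871501 to 15872000 (-32.7 kb) had 29.8% in iridophores, against 87.8% in melanophores, 96.2% in late NCCs and 97.6% in early NCCs. The difference was -58.0 points on 5 CpGs, with 192 melanophore and 135 iridophore reads (Fisher's exact test, adjusted p = 1.31e-23). As at *ets1*, iridophores alone were low. The tile at 15876501 to 15877000 (-27.7 kb) had 20.7% in iridophores, against 52.9% in melanophores, 93.2% in late NCCs and 97.7% in early NCCs (difference -32.2 points on 5 CpGs, Fisher's exact test, adjusted p = 2.28e-12). It overlapped no drawn region and was lost under 4 of the alternatives that keep the tile grid, which include the read division (adjusted p = 0.142, exact test). Tiles shifted by 250 bp gave no call that overlapped it either.

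Several tiles lay just outside the minimum difference. At *gbx2*, the tile at 15892001 to 15892500 had 95.1% in melanophores and 65.1% in iridophores, with a difference of -29.9993 points. In the tile at 15901001 to 15901500 the iridophore level was the higher, 56.1% against 26.2% in melanophores, on 3 CpGs and 80 reads in each library (29.9 points, Fisher's exact test, adjusted p = 0.00989). At *ets1*, the tile at 48354001 to 48354500 had 23.9% in melanophores and 52.3% in iridophores (28.5 points). The calls therefore do not hold every sizeable difference in the windows, and some of those not called were higher in iridophores.

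**Figure D2:**
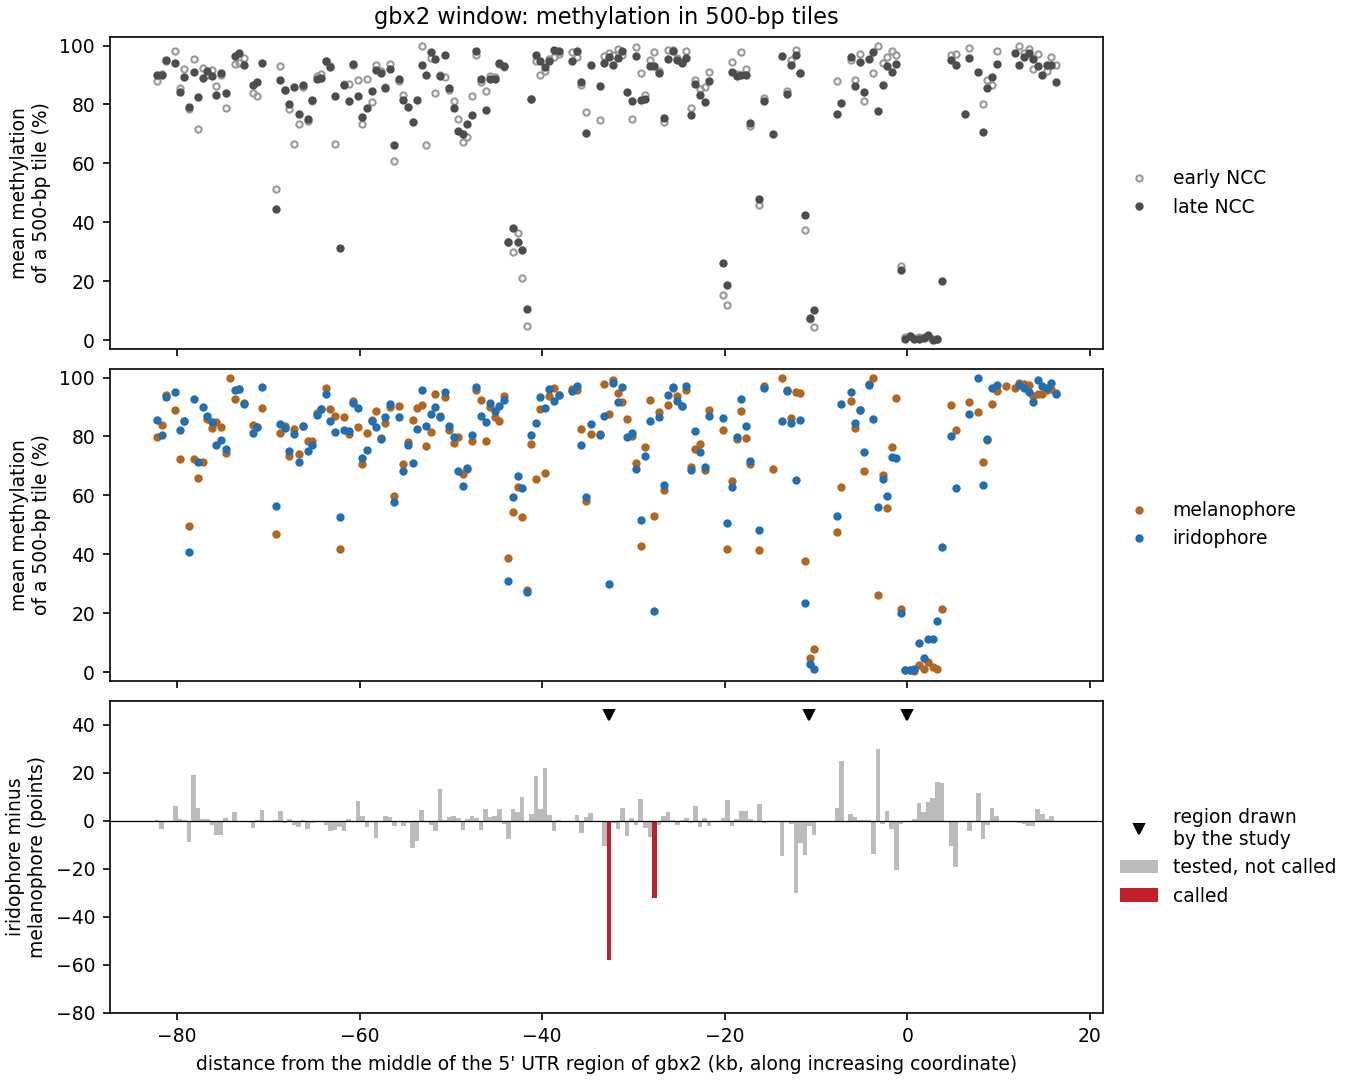
The same measurements along the *gbx2* window, against distance from the middle of the drawn 5′ UTR region (kb). The 2 called tiles (red) lie at -32.7 and -27.7 kb, the low tiles next to 0 kb are low in all 4 libraries, and the iridophore tiles at 1.30 to 3.30 kb stand above those of melanophores.

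The study sorted its regions into those called different in methylation (DMR), in accessibility (DAR) or in both (DMAR). Solo marks the regions that it called in only 1 of them, which does not mean that the other measure was unchanged. The study scanned for activating regions in iridophore differentiation from NCCs. It drew 7 regions at *ets1* and 4 at *gbx2*. The study called the methylation change of the 6 DMRs and DMARs on these WGBS libraries, and chose the 5 solo DARs by accessibility. The levels of all 11 are given as a description without a test. They are named here ets1-a to ets1-g and gbx2-a to gbx2-d in order of coordinate, and gbx2-d lies outside the window, 44.1 kb from the gene start region. By the mean of CpG levels, iridophores were below melanophores in 10 of the 11 regions and by 30 points or more in 5, all of these DMRs or DMARs. By the share of methylated reads they were below in 9, since ets1-f had the higher share in iridophores. The median difference was -13.7 points, and the median tile difference in the genome was -0.44 points. Nothing is read from this, because most of the regions were chosen for a change of methylation.

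**Figure D3:**
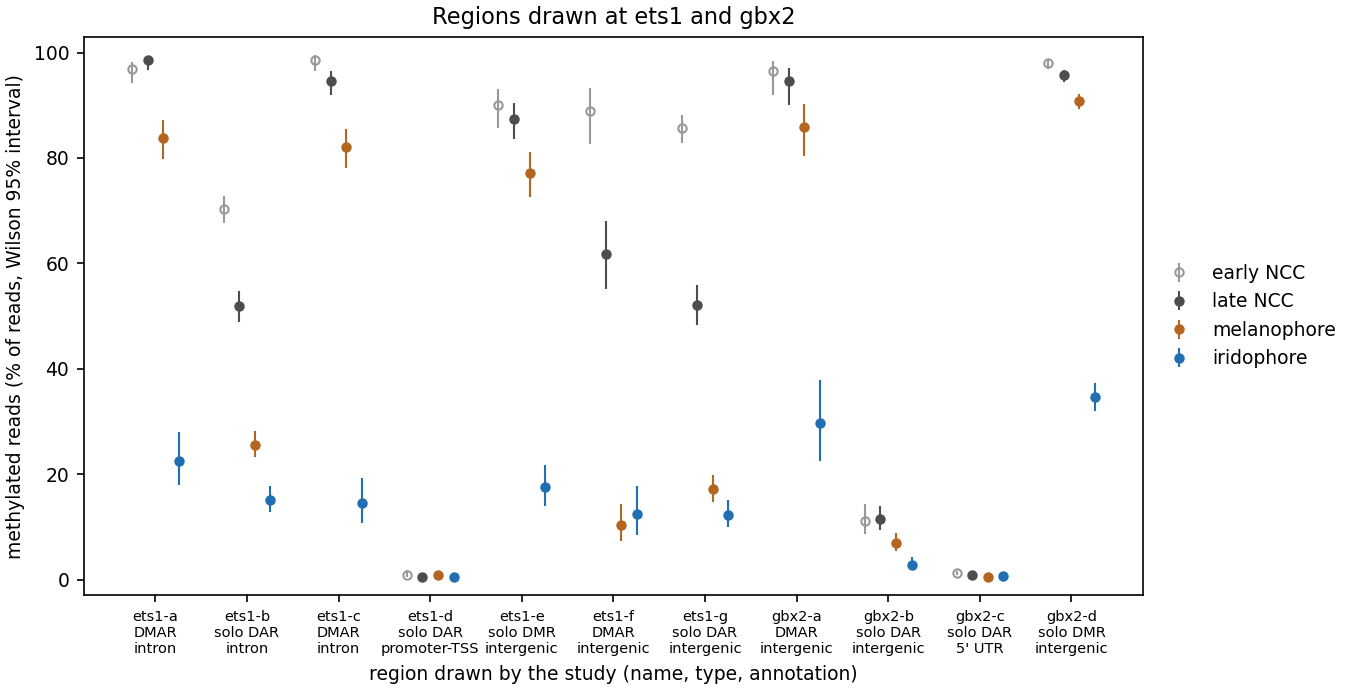
Share of methylated reads (%) with its Wilson 95% interval in each of the 11 drawn regions, for the 4 libraries, with the study's type and annotation of each region. In ets1-a, ets1-c, ets1-e, gbx2-a and gbx2-d iridophores stand far below the other 3 libraries. In ets1-b and gbx2-b their interval also lies below the others, with smaller differences from melanophores. In ets1-f the pigment cells are at 10.3% and 12.4%, and in ets1-d and gbx2-c all 4 libraries are below 2%.

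The 5 regions that differed most between the pigment cells were high in NCCs and melanophores and low in iridophores. ets1-e (solo DMR, intergenic, 48335736 to 48336042, 9 CpGs) had 17.1% in iridophores, against 83.5% in melanophores, 92.1% in late NCCs and 92.4% in early NCCs, on 371, 359, 365 and 249 reads. ets1-c (DMAR, intron, 48310458 to 48310743, 8 CpGs) had 25.3%, 85.5%, 94.5% and 99.4%, and ets1-a (DMAR, intron, 48287269 to 48287778, 12 CpGs) had 22.7%, 82.8%, 98.2% and 97.2% in the same order. In ets1-c, the CpGs at 48310699 and 48310743, with 57.1% and 85.7% on 7 iridophore reads each, raised the iridophore mean. The share of methylated reads was 14.5% (95% interval 10.8% to 19.2%).

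gbx2-a (DMAR, intergenic, 15871587 to 15871755, 5 CpGs) is the stretch inside the called tile at -32.7 kb. gbx2-d (solo DMR, intergenic, 15948266 to 15948802, 26 CpGs) had 35.1% in iridophores, against 90.7% in melanophores, 95.7% in late NCCs and 97.9% in early NCCs, on 1153, 1583, 1336 and 1111 reads. All 26 CpGs of gbx2-d were lower in iridophores, by differences from -76.3 to -34.1 points. Melanophores were below late NCCs in each of these 5 regions as well. The melanophore minus late NCC differences ran from -15.4 to -5.05 points, and the iridophore minus late NCC differences from -76.9 to -60.7 points.

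The mean iridophore level of the flanks of these 5 regions was high. Within 1000 bp on either side of ets1-e, the iridophore level was 84.1%, and it was 83.9% beside ets1-c, 82.0% on the 5 CpGs beside ets1-a, all on its right, 90.0% beside gbx2-a and 93.0% beside gbx2-d. Beside ets1-c the low stretch went on past the region on its left, where iridophores had 35.9% at 48310383 and 42.6% at 48310371, against 86.2% and 97.2% in melanophores. Inside ets1-e, single CpGs with at least 10 reads ran from 12.5% to 26.7% in iridophores with a median of 15.5%, and from 26.6% to 96.6% in melanophores with a median of 92.9%. The last CpG of the region, at 48336042, was lower than its neighbors in NCCs and melanophores, with 19.7% in iridophores, against 26.6% in melanophores, 49.3% in late NCCs and 52.3% in early NCCs. The next CpG, at 48336069, stood at 76.1% in iridophores and 90.4% in melanophores. Inside gbx2-a, the 5 CpGs ran from 26.9% to 31.8% in iridophores and from 79.3% to 95.5% in melanophores, and the ranges did not overlap.

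**Figure D4:**
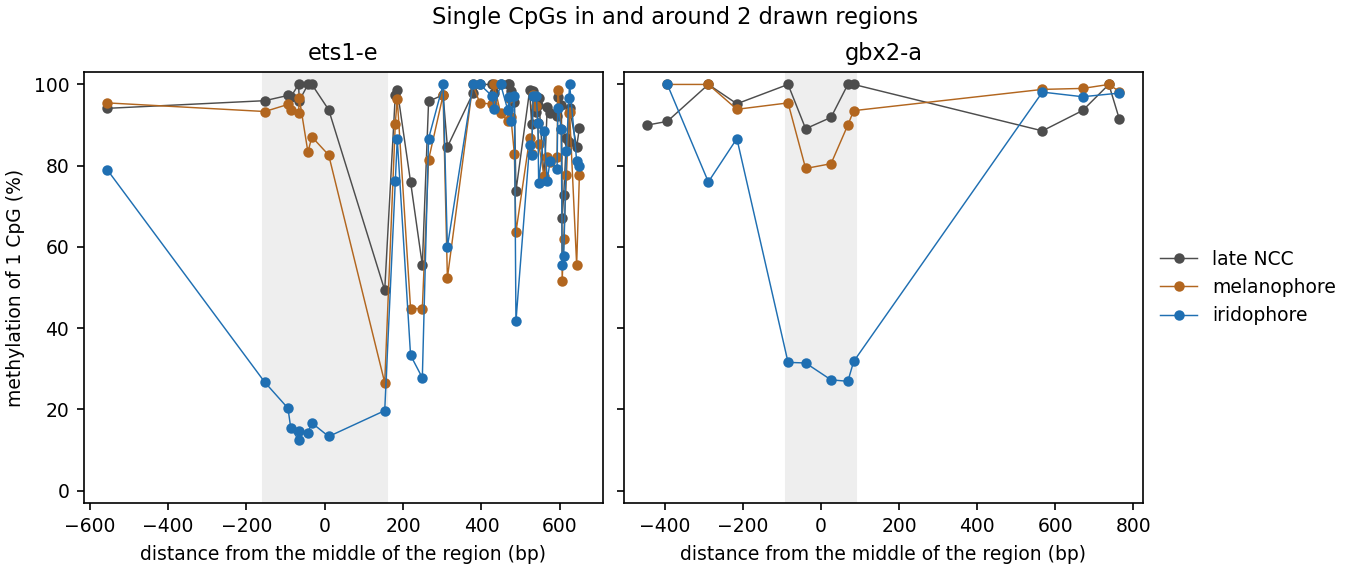
Methylation (%) of single CpGs with at least 10 reads in late NCCs, melanophores and iridophores around ets1-e (left) and gbx2-a (right), against distance from the middle of the region (bp), with the region shaded. The iridophore CpGs lie between 12.5% and 26.7% inside ets1-e and between 26.9% and 31.8% inside gbx2-a, and most CpGs beyond either region are higher, with a few between 25% and 50% to the right of ets1-e.

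Other drawn regions at *ets1* were low in both pigment cells, and their late NCC levels were below those of early NCCs. ets1-f (DMAR, intergenic, 48338976 to 48339155, 6 CpGs) had 11.7% in iridophores, against 11.9% in melanophores, 64.7% in late NCCs and 90.1% in early NCCs. ets1-g (solo DAR, intergenic, 48342954 to 48343470, 18 CpGs) had 14.5%, 23.4%, 57.7% and 81.8%, and ets1-b (solo DAR, intron, 48307001 to 48307360, 19 CpGs) had 14.3%, 28.03%, 52.0% and 69.9% in the same order. The iridophore minus melanophore difference was -0.145 points in ets1-f, with 3 of 6 CpGs lower, -10.7 points in ets1-g and -13.7 points in ets1-b. Against late NCCs, the iridophore difference was -41.9 points in ets1-g and -36.9 points in ets1-b, although both are solo DARs. The difference in ets1-g depended on the weight of each CpG. When the level was weighted by reads, ets1-f turned to 2.15 points higher in iridophores and ets1-g had -4.97 points.

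The regions drawn at the gene starts were unmethylated throughout. ets1-d (solo DAR, annotated by the study as promoter, 48328902 to 48329307, 31 CpGs) had 0.584% in iridophores, against 0.861% in melanophores, 0.512% in late NCCs and 1.29% in early NCCs. gbx2-c (solo DAR, annotated as 5′ UTR, 15903940 to 15905019, 67 CpGs) had 0.595%, 0.547%, 0.734% and 1.10%. The intervals of the pigment cells overlapped in both regions. gbx2-b (solo DAR, intergenic, 15893357 to 15894123, 25 CpGs) was already low in NCCs, with 2.86%, 8.29%, 11.6% and 11.8%. There the methylated read share was 6.91% in melanophores (95% interval 5.41% to 8.77%) and 2.77% in iridophores (1.76% to 4.34%).

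The unmethylated domain at the start of *gbx2* was wider than gbx2-c and was not the same in iridophores as in the other libraries. It covered 8 tiles in a row, from 15904001 to 15908000, with 178 CpGs and every tile below 20% in all 4 libraries. On the side of the gene start (15904001 to 15905500), the mean over CpGs with at least 10 reads was 0.781% in iridophores, against 0.565% in melanophores, 0.716% in late NCCs and 1.08% in early NCCs. On the far side (15905501 to 15908000), it was 9.84%, 1.85%, 0.706% and 0.910%. Within the domain, the iridophore level was thus raised on the far side and not on the side of the gene start.

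The split into these sides was chosen after the values were seen, and its levels are a description. On the far side 56 of 85 CpGs in iridophores were above 5%, against 10 of 87 in melanophores, 2 of 90 in late NCCs and 4 of 72 in early NCCs. In iridophores 14 CpGs were above 20% and the highest was at 36.7%, while no CpG of the other libraries was above 20%. The methylated read share was 9.15% in iridophores on 3179 reads (95% interval 8.20% to 10.2%) and 1.66% in melanophores on 4469 reads (1.32% to 2.07%). It was 0.791% in late NCCs (0.558% to 1.12%) and 0.813% in early NCCs (0.527% to 1.25%). Melanophores thus stood above NCCs there too, by less than iridophores did. The 5 tiles of the far side had 9.87%, 4.61%, 11.2%, 11.3% and 17.2% in iridophores, and each passed the adjusted p of the tile test, with differences of 3.49 to 16.2 points, below the minimum difference for a call. Of the tiles under 5% in melanophores, 5 of 9 in the *gbx2* window and 0 of 4 in the *ets1* window passed that p with a higher iridophore level. The background was 1.17% of such tiles in the genome. The 5 tiles at *gbx2* are the adjacent far-side tiles themselves, seen before this count was made, so nothing further is read from their share.

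**Figure D5:**
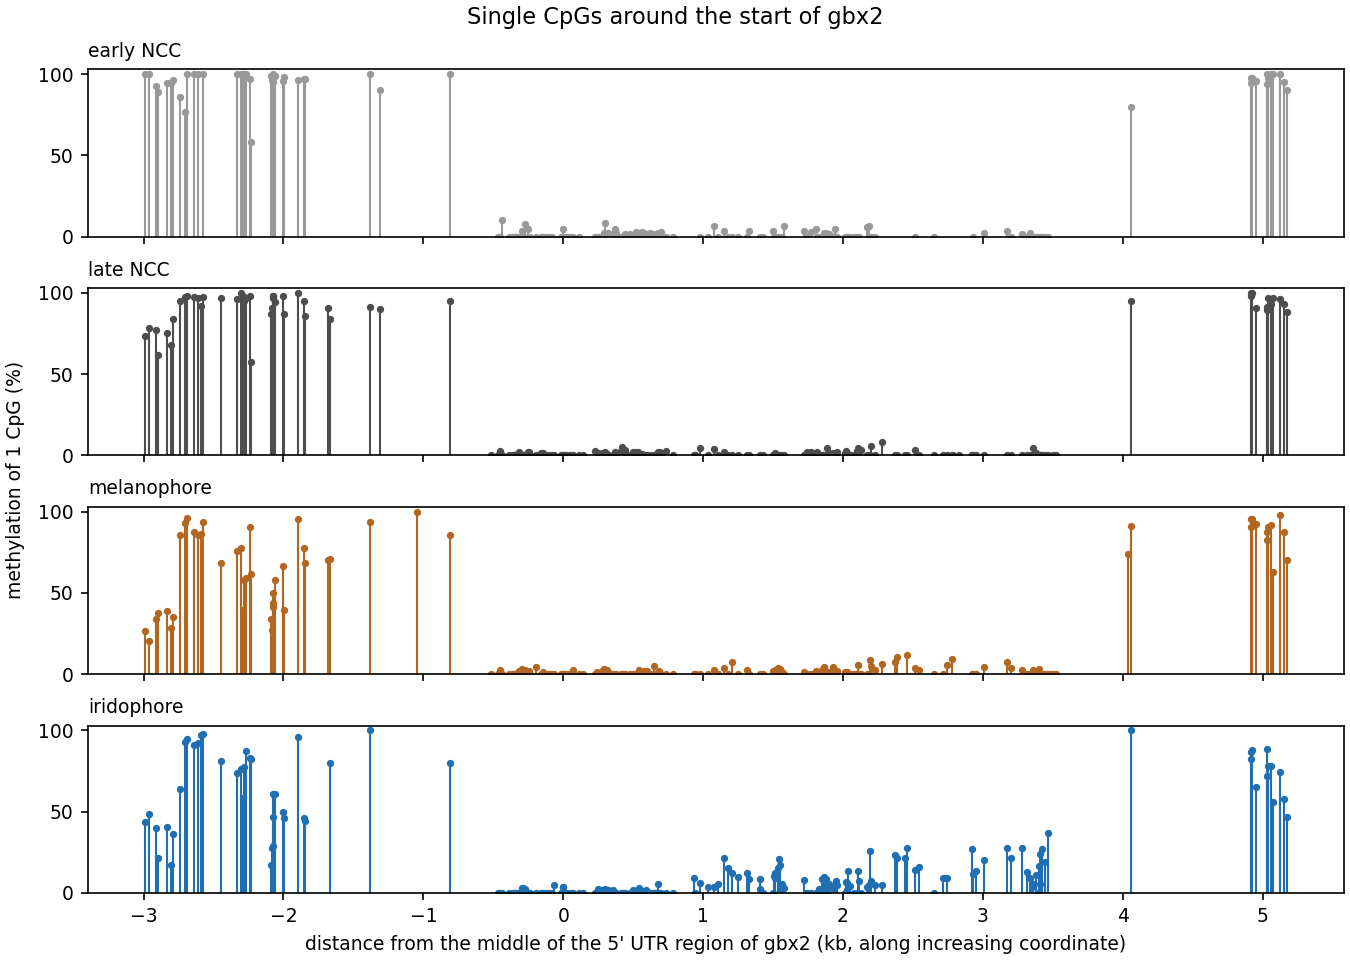
Methylation (%) of single CpGs with at least 10 reads around the start of *gbx2* in the 4 libraries, against distance from the middle of the drawn 5′ UTR region (kb). From about 1 to 3.5 kb the iridophore CpGs reach up to 36.7%, whereas those of the other libraries stay at 11.8% or below.

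Stretches were also looked for without the tile grid, as runs of at least 3 consecutive CpGs. Each CpG had to differ by 30 points or more, with neighbors at most 500 bp apart. These runs were defined after the values were seen and have no test. The *ets1* window held 11 runs lower in iridophores and 1 higher on 1763 compared CpGs, and the *gbx2* window held 1 lower on 1813. Of the 12 lower runs, 4 overlapped ets1-a, ets1-c, ets1-e and gbx2-a, and the other 8, at *ets1*, overlapped no drawn region. Among these 8, the run at 48346627 to 48346681 lies inside the called tile at 48346501 to 48347000. The genome held 1.11 lower and 1.10 higher runs per 1000 CpGs.

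Among the lower runs outside the drawn regions, that at 48302914 to 48303123 (3 CpGs) had 6.30% in iridophores, against 82.1% in melanophores, 89.1% in late NCCs and 100% in early NCCs. In the single higher run at *ets1*, melanophores were the low library. It spanned 48353809 to 48354177 (24.9 kb, 15 CpGs), with 88.8% in iridophores, against 43.2% in melanophores, 96.4% in late NCCs and 96.4% in early NCCs. Tiles shifted by 250 bp called this stretch, with a difference of 38.0 points on 19 CpGs (Fisher's exact test, adjusted p = 5.39e-42).

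At *ets1*, levels were lower in both pigment cells than in late NCCs, from which they differ in strain and age as well. In iridophores 19 of 145 tested tiles were called, all lower (13.1%), where the genome background was 2.57% in either direction and 2.49% lower. In melanophores 11 of 148 were called, all lower (7.43%), and the background was 2.46% in either direction and 2.39% lower. Without the minimum difference, 46 *ets1* tiles passed the adjusted p with lower and 0 with higher iridophore levels (background 11.1% and 1.06%), and 40 and 1 with lower and higher melanophore levels (background 11.2% and 1.22%). These comparisons share the late NCC library, so their calls are given side by side. At the tile from 48321501 to 48322000 (-7.37 kb), for example, the level was 13.7% in iridophores, 34.5% in melanophores and 83.4% in late NCCs, and at 48360001 to 48360500 (31.1 kb) it was 30.3%, 22.5% and 76.5%. Iridophores were the lower of the pigment cells in the first example and melanophores in the second.

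At *gbx2*, 11 of 170 tiles were called from late NCCs to iridophores (6.47%), 7 lower (4.12%) and 4 higher. From late NCCs to melanophores, 6 of 172 were called (3.49%), 5 lower (2.91%) and 1 higher. The genome background was 2.57% in either direction and 2.49% lower for iridophores, and 2.46% and 2.39% for melanophores. Higher calls were rare in the genome, with 0.0792% of tiles in iridophores and 0.0664% in melanophores. The tile at 15884001 to 15884500 (-20.2 kb) had 86.1% in iridophores, against 82.2% in melanophores, 26.2% in late NCCs and 15.4% in early NCCs, and was called higher in both pigment cells on 4 and 5 CpGs. Its neighbor at 15884501 had 50.7%, 41.9%, 18.8% and 11.9%. Neighboring tiles at 15861501 and 15862001 had 33.4% and 30.6% in late NCCs, against 66.6% and 62.6% in iridophores and 63.0% and 52.7% in melanophores. All 4 tiles called higher in iridophores thus had higher levels in melanophores than in late NCCs as well, and they lay in 2 adjacent pairs. Cell type, strain and age cannot be told apart in these differences from NCCs. The number of higher calls in iridophores depended on the setting. With reads divided by the number of CpGs it was 0, with 10 reads per CpG 1 and with shifted tiles 2, whereas a minimum of 20 points gave 5.

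From early to late NCCs, no tile was called in either window (0 of 137 at *ets1* and 0 of 157 at *gbx2*, Fisher's exact test on tiles), and the genome background was 0.0988%, of which 0.0805% lower and 0.0183% higher in late NCCs. Without the minimum difference, 13 *ets1* tiles passed the adjusted p with lower and 1 with higher levels in late NCCs. At *gbx2* the same count was 2 lower and 1 higher. The background of such tiles was 1.86% lower and 0.365% higher.

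Most tiles measured in all 4 libraries held 1 state in all of them, above 80% or below 20%. Of 136 tiles measured in all 4 libraries at *ets1*, 72 were above 80% in all (52.9%) and 3 were below 20% in all (2.21%). At *gbx2* these were 78 (49.4%) and 10 (6.33%) of 158. The genome had 63.2% above 80% in all and 2.93% below 20% in all, so the share high in all libraries was below the background in both windows. Besides the tiles of the gene starts, a tile at 48375001 to 48375500 (46.1 kb from the start of *ets1*) was low in all libraries, between 0% and 2.30%. At *gbx2*, the 2 tiles from 15893501 to 15894500 (-10.5 kb), which overlap gbx2-b, were also low in all libraries, at 10.1% or below. Tiles above 80% in both NCC stages and below 50% in iridophores numbered 9 at *ets1* and 2 at *gbx2*, and those below 50% in melanophores numbered 3 and 1. These were 6.62% and 1.27% of the measured tiles for iridophores, where the genome had 1.17%, and 2.21% and 0.633% for melanophores, where the genome had 1.07%.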

How the data were processed

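WGBS was measured in early NCCs, late NCCs, melanophores and iridophores. The authors used Cutadapt for adapter trimming, Bismark for alignment to danRer10 and Picard for duplicate removal, and combined 2 replicates per cell type. As deposited by the authors, each covered CpG has a methylation level, a fraction of its reads, and a raw read count without normalization. Tool versions are not given in the sources used here. Methylated reads were taken as level times reads, which lay within 0.0044 of a whole number. Summed over CpGs, the iridophore library held 564793695 reads, the melanophore library 794596680, the late NCC library 683354245 and the early NCC library 521292949.

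The level of a window, tile or region was the mean of its CpG levels. Tiles of 500 bp needed 3 CpGs with 5 reads in both libraries, and were compared by two-sided Fisher's exact tests on summed reads, adjusted by the Benjamini-Hochberg method over all tiles of 25 chromosomes (SciPy 1.17.1, NumPy 2.4.6, pandas 2.3.3, numba 0.67.0, Python 3.11.15). The minimum difference of 30 points and the value of 0.01 were taken from the study's DMR call with DSS. There 0.01 was a threshold on the unadjusted p, whereas here it was applied to the adjusted p. DSS was not run here. The tile test was tested on simulated data, with reads drawn independently at each CpG. These held no reads that span several CpGs and no spread between replicates, so the test was not checked for either. A read that covers more than 1 CpG was counted at all of them, so p-values can be too small and intervals too narrow, and both cover counting error only.

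The 2 windows, the drawn regions and the alternatives were chosen with earlier results of these data known. Positions of drawn regions were read from the study's figure. The called tiles of both windows, all drawn regions, and single CpGs of the region and tile with the largest difference were named by rule, and other positions were named after their values were seen. Alternatives changed the minimum reads per CpG, the minimum CpGs, the minimum difference, tile start and length, the weighting of CpGs, the reads counted in the test, and CpGs of very high coverage. ATAC-seq and RNA-seq libraries were not used here. No genome sequence was used here.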

Additional observations from a re-analysis of the deposited data

How the results depend on the processing

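No called tile or window mean reversed under the alternatives in which it was followed. Called tiles were not followed where tile start or length changed, and a tile count cannot reverse. The small difference of ets1-f changed sign when weighted by reads (from -0.145 to 2.15 points). With a minimum difference of 20 points, the iridophore against melanophore calls numbered 15 at *ets1* (13 lower, 2 higher) and 5 at *gbx2* (2.38% of all genome tiles), and with 40 points 3 and 1 (0.453% of genome tiles). Tiles of 1000 bp gave 2 calls at *ets1* (genome 0.651%), tiles shifted by 250 bp gave 10 at *ets1* and 1 at *gbx2* (genome 1.09%), and a minimum of 10 reads per CpG gave 1 at *gbx2* (genome 1.24%). Of the 10 shifted calls at *ets1*, 5 overlapped a called tile. Reads divided by the number of CpGs gave 2 calls at *ets1* and 1 at *gbx2* (genome 0.235%).

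From late NCCs to iridophores, 20 points gave 30 calls at *ets1* (genome 4.41%). At *gbx2* there were 7 calls with 10 reads per CpG, 3 with 40 points, 7 with shifted tiles, 2 with tiles of 1000 bp and 4 with divided reads (genome 2.82%, 1.53%, 2.57%, 2.10% and 1.33%). In the same order, 1, 1, 2, 1 and 0 of these were higher in iridophores, against 4 in the reported count. From late NCCs to melanophores, *ets1* had 20 calls at 20 points, 5 at 40 points, 7 with tiles of 1000 bp and 6 with divided reads, and *gbx2* had 13, 3 and 1 under the first 3 of these (genome 4.36%, 1.37%, 1.90% and 1.48%). From early to late NCCs, 20 points gave 3 calls at *ets1* and 1 at *gbx2* (genome 0.341%), and the read-weighted level gave 1 at *ets1* (genome 0.131%). The remaining 54 tile counts stayed within 1.5 times the reported count.

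For single tiles called between the pigment cells, 47 results kept their call and 9 did not. These results leave out the shifted tiles and the tiles of 1000 bp, in which the named tiles were not followed. The *gbx2* tile at -27.7 kb was lost with 10 reads per CpG (-29.9 points) and with the read-weighted level (-29.6 points). The *ets1* tiles at 17.6 and -1.37 kb and the *gbx2* tile at -27.7 kb fall under 40 points by their size alone. With divided reads, 3 *ets1* tiles and 1 *gbx2* tile lost their call. Of the drawn regions, ets1-c moved to -72.1 points with 10 reads per CpG and to -67.6 points when weighted by reads, ets1-e to -59.6 points and ets1-g to -4.97 points by the same weighting. The cause was not tested for these changes beyond what each setting does by construction.

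No paired analysis was possible because the authors combined the 2 replicates of each cell type before deposit, and for the same reason no replicate could be left out. At median depths of 21 to 33 reads in the pigment cell libraries of these windows, the level of 1 CpG is imprecise.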
